A study of Caenorhabditis elegans with 47 samples.

Results

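The molting genes described here are 8 of the 17118 genes measured in whole Caenorhabditis elegans: the nuclear receptor genes nhr-23 and nhr-25, the molting genes mlt-8, mlt-9, mlt-10 and mlt-11, the protease inhibitor gene bli-5 and the epidermal receptor gene lrp-1. They were taken by name, and 16 probe sets of the array are annotated to 1 of them alone. For each gene the probe set with the highest mean was used. Its deposited intensity was read as log2(intensity + 1), so that 1 unit is a doubling of signal and dim genes are understated. The worms expressed Abeta (beta amyloid, 15 arrays), GFP::degron (GFP fused to a degron, a peptide that marks proteins for breakdown, 16 arrays) or GFP (16 arrays). Up to the start of the third larval stage all grew at 16 °C. They were then shifted to 25 °C, and collections ran from that moment to 20 h later at intervals of 4 h. For the 3 kinds of worm, the promoter, the tissue of expression and the strain name are not given in the sources used. All 3 carry an expressed transgene product, and worms without one are not among these groups.

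A nematode molts at the end of each larval stage, when the epidermis secretes a new cuticle below the old one and the old one is then shed. Many genes of this process are transcribed in pulses that return once per larval stage, and the last molt ends with the adult. NHR-23, related to insect DHR3 and vertebrate ROR receptors, and NHR-25, related to insect Ftz-F1, are transcription factors needed to complete larval molts. The mlt genes take their name from animals that fail to shed the old cuticle, MLT-11 and BLI-5 hold Kunitz-type protease inhibitor domains, and LRP-1 is a megalin-related receptor for endocytosis on the epidermal surface.

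The 8 h and 16 h groups had 4 arrays per strain, and the 12 h groups had 4 arrays of Abeta worms, 5 of GFP::degron worms and 5 of GFP worms. At 0, 4 and 20 h each strain had 1 array. GFP T8 replicate 3 stood apart: its median intensity was 20.3, whereas the other 46 arrays ran between 60.1 and 108.7. It was therefore left out of the values below, which rest on 37 arrays of 8, 12 and 16 h, and calls that were lost with it (38 arrays) are named beside each result. In the fit of 38 arrays, differences between the other groups are unchanged, and all groups share 1 estimate of the spread. Replicates were labelled as biological repeats. A gene was called in a comparison when its adjusted p was under 0.05 over all 17118 genes in limma. In RNA from whole worms, fewer cells of a type and less RNA per cell cannot be told apart. Epidermal genes, as 7 larval cuticle collagen genes, had a mean log2 level between 9.43 and 12.41 on these 37 arrays.

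Most of the 8 molting genes had a lower mean at 16 h than at 12 h. At 16 h against 12 h after the upshift, 8 of 8 had a lower mean in Abeta worms, 7 of 8 in GFP::degron worms and 7 of 8 in GFP worms, the exception in both being bli-5. At 12 h against 8 h, 8 of 8 had a higher mean in Abeta worms, 6 of 8 in GFP::degron worms and 6 of 8 in GFP worms, but none of those differences was called. The median of those 8 differences was 0.33, 0.49 and 0.15 for the same strains, against -0.02, -0.07 and -0.04 over all genes. For lrp-1, higher in each strain, a second probe set had a lower mean in each. The shares of all genes with a higher or a lower mean are not given. GFP at 16 h was the lowest of the 9 groups for 6 of the 8 genes, the exceptions being mlt-10 and bli-5. Neighbouring groups in the order of levels mostly overlapped. Of the 8 pairs of neighbours per gene, nhr-25 had 1 pair with no overlap (Abeta and GFP at 16 h), mlt-9 had 1 (GFP::degron at 12 h and Abeta at 8 h), and the other 6 genes had 0.

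**Figure D1:**
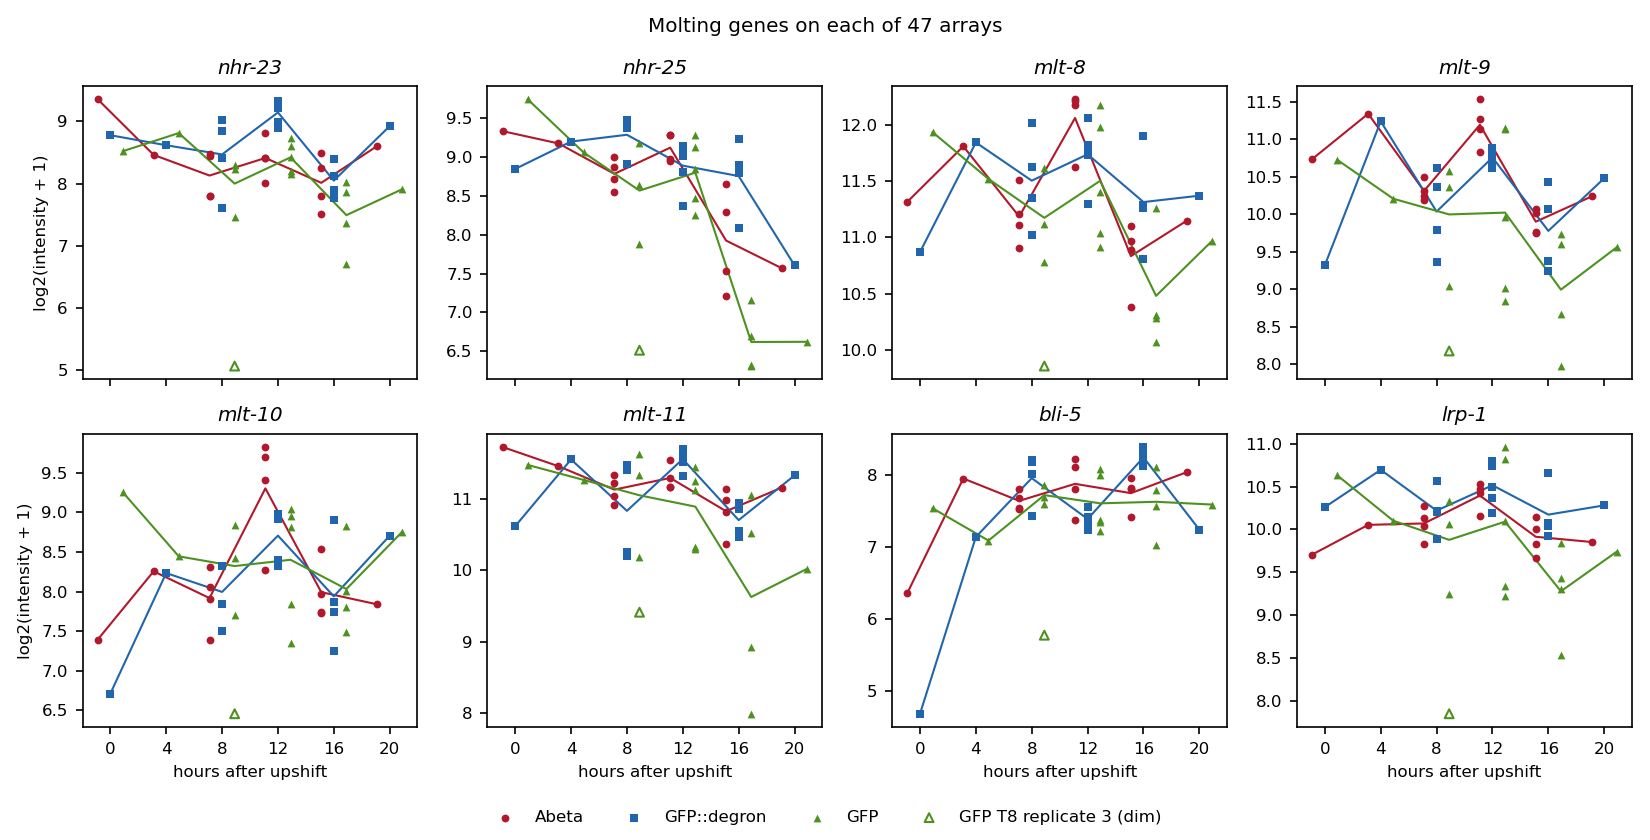
Level of each of the 8 molting genes on all 47 arrays against hours after the upshift, as log2(intensity + 1), with 1 point per array, lines through the means of each strain without the open triangle, and the open triangle for the dim GFP array of 8 h (strains are drawn slightly apart). The GFP triangles of nhr-25 at 16 h all lie at or below 7.16, under every GFP::degron and Abeta point of that time.

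Abeta worms at 16 h against 12 h had 4 of the 8 genes called lower and 0 called higher, where 18.9% of all genes were called in either direction and 9.28% were called lower. These were nhr-25, mlt-8, mlt-9 and mlt-10. On single arrays, 5 of the 8 genes were lower on every 16 h array than on every 12 h array, against 9.57% of all genes. The median difference of the 8 genes was -0.84, and that of all genes was 0.04. Keeping the dim array gave a count of 2 (nhr-25 and mlt-8), where 6.35% of all genes were called, and it was also 2 without Abeta T12 replicate 1 or without Abeta T12 replicate 2.

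GFP worms at 16 h against 12 h had 6 of the 8 genes called lower and 0 called higher, where 36.3% of all genes were called and 20.7% were called lower. Both nuclear receptor genes, mlt-8, mlt-9, mlt-11 and lrp-1 were in that count, and mlt-10 and bli-5 were not. The median of the 8 differences was -0.98, against 0.02 over all genes. The count was 3 with the dim array (nhr-25, mlt-8 and mlt-11), where 16.3% of all genes were called, and it was 2 without GFP T16 replicate 2.

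GFP::degron worms at 16 h against 12 h had 1 gene called lower, nhr-23, and 1 called higher, bli-5, where 10.3% of all genes were called, 5.24% lower and 5.06% higher. In this comparison the median of all genes lay at 0.13, and that of the 8 genes at -0.60. With the dim array 0 of the 8 were called in limma, and 0.123% of all genes. At an unadjusted p under 0.05, without the dim array, 5 of the 8 passed. The share of all genes at that limit is not given, here or below. Counts at an unadjusted p therefore have no background and show no excess.

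**Figure D2:**
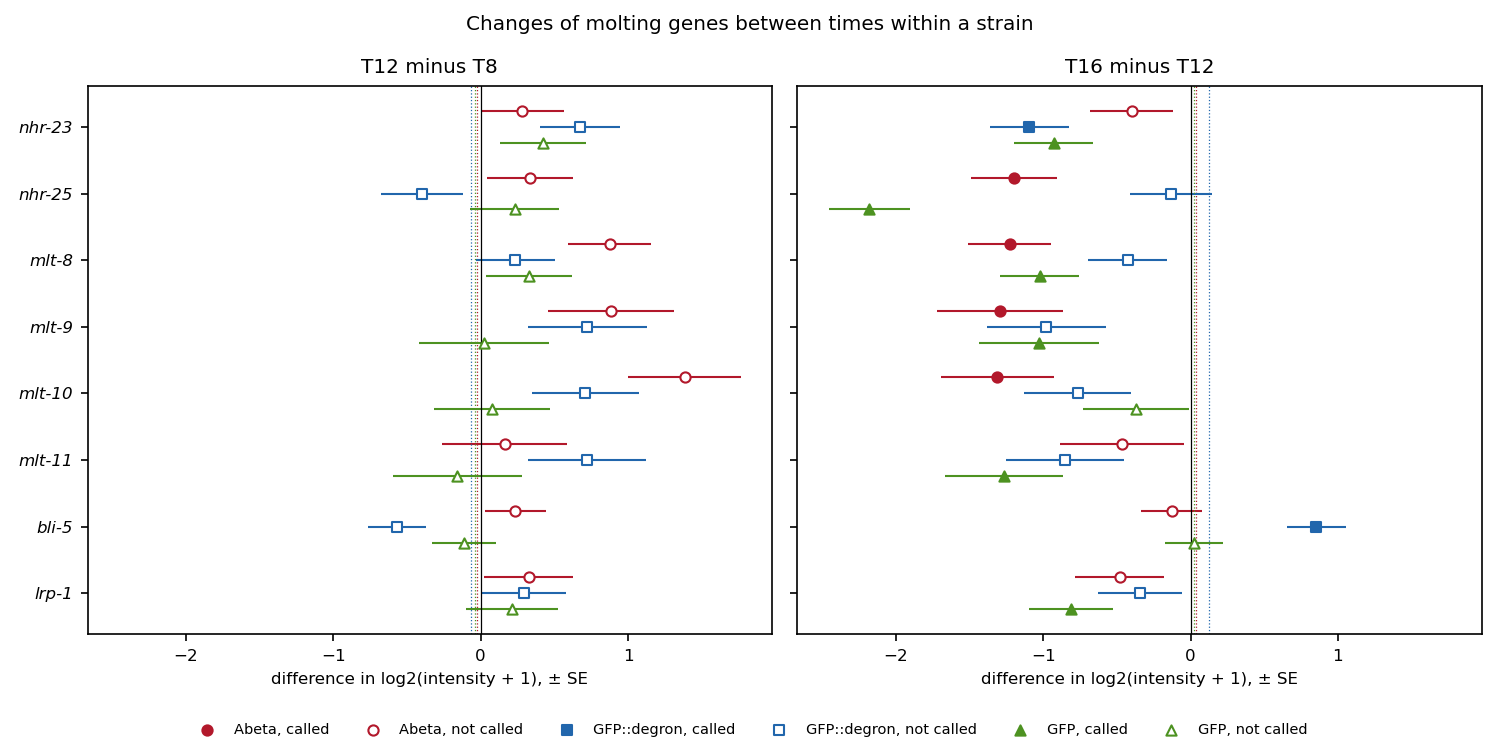
Difference in log2(intensity + 1) between times within each strain for the 8 molting genes, with bars for the SE; filled symbols were called and dotted lines are the medians of all genes in each strain. At the right, nhr-25 of GFP worms at -2.18 is the farthest below 0, and bli-5 of GFP::degron worms at 0.85 is the only filled symbol above 0.

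The gene nhr-25 had the largest of the called differences, both between times and between strains. In GFP worms it was at 7.16, 6.32, 6.31 and 6.69 at 16 h, against 8.25, 9.29, 9.13, 8.47 and 8.85 at 12 h. Every 16 h array was below every 12 h array, and the difference was -2.18 ± 0.28 (SE; adjusted p = 1.59e-06), which is 4.53-fold lower. Against the 3 arrays of 8 h kept in the fit, which were at 9.19, 7.88 and 8.64, it was -1.95 ± 0.32 (adjusted p = 7.64e-05). The median of all genes in that comparison was -0.15, and relative to it nhr-25 was at -1.80. These calls held with the dim array, with adjusted p of 5.84e-05 for 16 h against 12 h and 0.00556 for 16 h against 8 h. Over all alternatives tried, the difference at 16 h against 12 h ran between -2.36 and -1.75. That at 16 h against 8 h ran between -2.29 and -1.44.

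In Abeta worms nhr-25 was at 8.66, 7.54, 7.21 and 8.29 at 16 h, against 8.98, 9.28, 9.28 and 8.94 at 12 h. The groups did not overlap, although replicates 1 and 4 at 16 h stayed near 12 h. The difference was -1.20 ± 0.29 (adjusted p = 0.00487), and it passed with the dim array too (0.0452). Against 8 h, where the arrays were at 8.99, 8.55, 8.87 and 8.72, the difference of -0.86 ± 0.29 was called by a narrow margin (adjusted p = 0.0499) and the groups overlapped. That call was lost with the dim array (0.284) and without any 1 of Abeta T8 replicates 1 to 4 or Abeta T16 replicates 2 and 3, where the adjusted p ran between 0.0662 and 0.273 and the difference between -0.94 and -0.62.

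In GFP::degron worms nhr-25 was at 9.24, 8.09, 8.80 and 8.89 at 16 h, against 9.14, 9.02, 9.12, 8.36 and 8.81 at 12 h. These groups overlapped, and the difference of -0.13 ± 0.28 was not called (adjusted p = 0.777). The array of 20 h was lower, at 7.61. At that time the Abeta array was at 7.57 and the GFP array at 6.62.

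Between strains at 16 h, nhr-25 was 2.14 ± 0.29 higher in GFP::degron worms than in GFP worms (4.40-fold; adjusted p = 1.98e-05), and every GFP::degron array lay above every GFP array. Relative to the median of all genes in that comparison, 0.13, the difference was 2.01. It held with the dim array (adjusted p = 0.000583). Over all alternatives tried, this difference between GFP::degron and GFP worms ran between 1.53 and 2.36. Abeta worms were 1.31 ± 0.29 above GFP worms at 16 h (adjusted p = 0.0147), again with no overlap. That call was lost with the dim array (0.187), with the mean of both probe sets (difference 0.78, adjusted p = 0.0648), and when any 1 of 4 arrays was left out (replicates 1 and 4 of Abeta, replicates 2 and 3 of GFP worms, all at 16 h), where the adjusted p ran between 0.0787 and 0.108. Abeta minus GFP::degron at 16 h was -0.83 ± 0.29 and was not called (adjusted p = 0.238).

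Whether the change of nhr-25 with time differed between strains was tested for 16 h against 8 h only. The change at 16 h against 12 h was not compared between strains in a test. The difference at 16 h against 8 h was -0.53 in GFP::degron worms and -1.95 in GFP worms, a difference of 1.42 ± 0.43 that did not pass (adjusted p = 0.197). It was -0.86 in Abeta worms, and the difference of 1.09 ± 0.43 from GFP worms did not pass either (adjusted p = 1.00).

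The other receptor gene, nhr-23, was highest in GFP::degron worms at 12 h. It was at 7.90, 8.39, 8.13 and 7.78 there at 16 h, against 9.22, 9.33, 9.28, 8.99 and 8.90 at 12 h, with no overlap. The difference was -1.10 ± 0.27 (adjusted p = 0.0129), or -1.22 relative to the median of all genes. With the dim array in the fit the same difference had an adjusted p of 0.194.

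In GFP worms nhr-23 was at 7.86, 6.72, 7.37 and 8.03 at 16 h, against 8.42, 8.60, 8.20, 8.15 and 8.74 at 12 h. The groups were separate but close, and the difference was -0.93 ± 0.27 (adjusted p = 0.00734). The call was lost without GFP T16 replicate 2, the lowest array (difference -0.67, adjusted p = 0.0637), with the dim array (0.116) and with the mean of both probe sets (difference -0.58, adjusted p = 0.0849). In Abeta worms nhr-23 averaged 8.01 ± 0.44 at 16 h and 8.41 ± 0.33 at 12 h (SD, n = 4 each), a difference of -0.40 ± 0.28 that was not called (adjusted p = 0.339). At the upshift itself the Abeta array held the highest value of all 47, 9.36, while the GFP::degron array was at 8.78 and the GFP array at 8.52.

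Among the mlt genes, mlt-8 gave calls in 2 strains that held under every alternative tried. In Abeta worms it was at 11.10, 10.97, 10.88 and 10.38 at 16 h, against 12.23, 12.17, 12.22 and 11.63 at 12 h. The groups were wholly apart, and the difference was -1.23 ± 0.28 (adjusted p = 0.00314, 2.34-fold lower). In GFP worms mlt-8 was at 11.26, 10.07, 10.31 and 10.28 at 16 h, against 10.92, 12.18, 11.98, 11.04 and 11.40 at 12 h. Replicate 1 at 16 h lay inside the range of 12 h, and the difference was -1.02 ± 0.27 (adjusted p = 0.00347). The 12 h arrays of Abeta worms also lay above those of 8 h without overlap, which were at 11.51, 11.11, 11.21 and 10.91, but the difference of 0.88 ± 0.28 was not called (adjusted p = 0.111).

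In GFP::degron worms mlt-8 averaged 11.31 ± 0.45 at 16 h (n = 4) and 11.74 ± 0.28 at 12 h (n = 5), and that difference was not called (-0.42 ± 0.27, adjusted p = 0.295).

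In Abeta worms mlt-9 was at 10.07, 9.77, 10.02 and 9.74 at 16 h, against 11.14, 11.27, 11.53 and 10.83 at 12 h. The gap between the groups was wider than the spread within either, and the difference was -1.29 ± 0.43 (adjusted p = 0.0321). It lost the call with the dim array (0.102) and without Abeta T12 replicate 1, 2 or 3 or Abeta T16 replicate 2, 3 or 4, where the adjusted p ran between 0.0544 and 0.0937. The SE in this fit is pooled over all 9 groups, and GFP worms had the largest spread. In GFP::degron worms mlt-9 averaged 9.78 ± 0.57 at 16 h (n = 4) and 10.76 ± 0.11 at 12 h (n = 5). Every 16 h array lay below every 12 h array there, but the difference was not called.

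In GFP worms mlt-9 was at 9.60, 7.97, 8.66 and 9.74 at 16 h, against 8.84, 11.14, 11.15, 9.01 and 9.97 at 12 h. At 12 h replicates 2 and 3 were above replicates 1 and 4 by more than 2 units, and the 2 lower ones lay within the range of 16 h. The difference of -1.03 ± 0.40 was called (adjusted p = 0.0458). It was lost with the dim array (0.109), after quantile normalization (0.0577), and without GFP T12 replicate 2, 3 or 5 or GFP T16 replicate 2 or 3, where the difference ran between -1.04 and -0.69 and the adjusted p between 0.0542 and 0.223. With arrays weighted by their fit to the group means it was -0.23 (adjusted p = 0.518).

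The same arrays of GFP worms at 12 h differed in other genes. Replicates 2 and 3 lay above replicates 1 and 4 not only for mlt-9 but also for nhr-25, mlt-8, mlt-10, mlt-11, bli-5 and lrp-1, and nhr-23 was the exception. This split was seen first in mlt-9, and the share of all genes that separate the same way was not counted. The arrays also differed in brightness. Probe sets under an intensity of 16 made up 22.7% and 26.1% on replicates 2 and 3, 12.8% and 12.7% on replicates 1 and 4, and 15.4% on replicate 5. The 9 sperm genes had a mean log2 level of 5.42 and 4.82 on replicates 2 and 3, of 10.42 and 9.88 on replicates 1 and 4, and of 8.19 on replicate 5. Larval cuticle genes averaged 12.37 and 12.29 on replicates 2 and 3, 11.23 and 11.13 on replicates 1 and 4, and 11.35 on replicate 5. Their part in the results was not tested.

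The gene mlt-10, which encodes a secreted, proline-rich nematode protein, had its highest mean in Abeta worms at 12 h. It was at 7.73, 7.97, 8.53 and 7.74 at 16 h, against 9.70, 9.83, 9.41 and 8.28 at 12 h. Replicate 4 at 12 h was the one low array, inside the range of 16 h. The difference was -1.31 ± 0.38 (adjusted p = 0.0159, 2.48-fold lower). It lost the call with the dim array (0.0636) and without Abeta T12 replicate 1 or 2 (adjusted p = 0.0507 and 0.0633).

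Against the 8 h arrays of Abeta worms, at 7.91, 7.39, 8.31 and 8.06, mlt-10 was 1.39 ± 0.38 higher at 12 h, the largest difference of the 8 genes in that comparison, but it was not called (adjusted p = 0.0734). None of the 8 was called there in limma, where 0.286% of all genes were, while 3 passed an unadjusted p under 0.05. Without Abeta T12 replicate 4 the count was 2. In GFP::degron worms mlt-10 averaged 7.94 ± 0.69 at 16 h (n = 4) and 8.71 ± 0.32 at 12 h (n = 5), and in GFP worms 8.03 ± 0.57 at 16 h (n = 4) and 8.40 ± 0.76 at 12 h (n = 5). Neither difference was called (adjusted p = 0.159 and 0.435). In the RefSeq gene table mlt-10 and mlt-8 lie on the same chromosome with 4 coding genes between them.

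The protease inhibitor gene mlt-11 had its widest spread in GFP worms at 16 h. It was at 10.52, 7.99, 8.93 and 11.06 there, against 10.33, 11.45, 11.25, 10.30 and 11.13 at 12 h. Replicates 2 and 3 were far below all 12 h arrays, whereas replicates 1 and 4 were among them. The difference was -1.26 ± 0.40 (adjusted p = 0.0139), and it held with the dim array (0.0406). Without GFP T16 replicate 2 it was -0.72 (adjusted p = 0.140), and without GFP T16 replicate 3 it was -1.03 (0.0697).

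Against 8 h, where the 3 arrays kept were at 11.33, 10.18 and 11.63, mlt-11 of GFP worms at 16 h was -1.42 ± 0.46 (adjusted p = 0.0231), or -1.27 relative to the median of all genes. The dim array ended that call (0.139), and so did leaving out GFP T8 replicate 1 or 4 or GFP T16 replicate 2 or 3, where the difference ran between -1.28 and -0.88 and the adjusted p between 0.0871 and 0.141. In Abeta worms mlt-11 was lower on every 16 h array than on every 12 h array, averaging 10.83 ± 0.33 at 16 h and 11.29 ± 0.18 at 12 h (n = 4 each), and was not called (adjusted p = 0.462). The same held in GFP::degron worms, with 10.70 ± 0.23 at 16 h (n = 4) and 11.56 ± 0.15 at 12 h (n = 5), a difference of -0.85 ± 0.40 (adjusted p = 0.156).

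The other inhibitor gene, bli-5, ran against the rest in GFP::degron worms. It was at 8.12, 8.18, 8.27 and 8.38 at 16 h, against 7.56, 7.41, 7.23, 7.41 and 7.32 at 12 h. Both groups were tight and wholly separate, and the difference was 0.85 ± 0.20 (adjusted p = 0.0099), or 0.73 relative to the median of all genes. The adjusted p was 0.152 with the dim array. At 8 h the same strain was at 8.20, 8.01, 7.42 and 8.17, so that 3 of its 4 arrays were near the level of 16 h.

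In the other strains bli-5 was not called between these times (adjusted p = 0.699 in Abeta and 0.939 in GFP worms). It averaged 7.74 ± 0.23 at 16 h and 7.87 ± 0.38 at 12 h in Abeta worms (n = 4 each), and 7.62 ± 0.45 at 16 h (n = 4) and 7.60 ± 0.40 at 12 h (n = 5) in GFP worms. At the upshift bli-5 was at 4.68 on the GFP::degron array and at 6.36 on the Abeta array, against 7.53 on the GFP array. That GFP::degron array had the lowest median intensity of the 46, 60.1.

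The receptor gene lrp-1 was at 9.84, 8.53, 9.30 and 9.44 in GFP worms at 16 h, against 9.23, 10.96, 10.82, 9.34 and 10.10 at 12 h. The groups overlapped, again through replicates 1 and 4 of 12 h. The difference was -0.81 ± 0.29 (adjusted p = 0.0258), and it lost the call with the dim array (0.117), with the mean of both probe sets (difference -0.43, adjusted p = 0.196), and without GFP T12 replicate 2 or 3 or GFP T16 replicate 2, where the difference ran between -0.63 and -0.56 and the adjusted p between 0.0937 and 0.152. With array weights it was -0.12 (0.583). In Abeta worms lrp-1 was lower on every 16 h array than on every 12 h array, but the difference of -0.48 ± 0.30 was not called (adjusted p = 0.274).

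The comparison of strains was clearest at 16 h. GFP::degron worms against GFP worms had 4 of the 8 genes called higher and 0 lower, where 22.1% of all genes were called and 14.5% were called higher. Besides nhr-25 these were mlt-8, bli-5 and lrp-1. The median of the 8 differences was 0.81 and that of all genes 0.13. Of the 8, 3 were higher on every GFP::degron array than on every GFP array, namely nhr-25, bli-5 and lrp-1, against 18% of all genes. The count was 1, nhr-25 alone, with the dim array, where 5.43% of all genes were called, and also after median centring of the arrays. It was 1 without GFP T16 replicate 2 or GFP::degron T16 replicate 4, and 2 without GFP T16 replicate 3 or GFP::degron T16 replicate 1.

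In those calls mlt-8 was at 11.90, 11.26, 10.81 and 11.29 in GFP::degron worms, against 11.26, 10.07, 10.31 and 10.28 in GFP worms. The overlap came from replicate 1 of GFP worms, and the difference was 0.83 ± 0.28 (adjusted p = 0.0324), or 0.71 relative to all genes. The gene bli-5 was at 8.12 to 8.38 in GFP::degron worms, against 8.10, 7.57, 7.79 and 7.03 in GFP worms, a difference of 0.62 ± 0.21 (adjusted p = 0.0325), or 0.49 relative to all genes. For lrp-1 the arrays were at 10.66, 10.04, 9.92 and 10.07 in GFP::degron worms, against 9.84, 8.53, 9.30 and 9.44 in GFP worms, a difference of 0.90 ± 0.30 (adjusted p = 0.031), or 0.77 relative to all genes. With the dim array the adjusted p of these 3 lay between 0.129 and 0.270. After centring it lay between 0.0885 and 0.0976. Leaving out 1 array ended the call of mlt-8 for GFP T16 replicates 2, 3 and 4 and GFP::degron T16 replicates 1 and 4 (0.0622 to 0.142), of bli-5 for GFP T16 replicates 2 and 4 and GFP::degron T16 replicates 3 and 4 (0.0694 to 0.163), and of lrp-1 for GFP T16 replicates 2 and 3 and GFP::degron T16 replicates 1 and 4 (0.0533 to 0.160).

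Abeta worms against GFP worms at 16 h had 1 gene called higher, nhr-25, where 2.42% of all genes were called and 1.62% were called higher. The other genes with a higher mean included mlt-11 (1.20 ± 0.42, adjusted p = 0.123) and mlt-9 (0.91 ± 0.43, adjusted p = 0.293). Every Abeta array of mlt-9 was above every GFP array, but barely: the lowest Abeta array was at 9.745 and the highest GFP array at 9.741. The count was 0 with the dim array, where 0.345% of all genes were called, and 0 without any 1 of the 4 arrays named above for nhr-25 in these strains. It was 2 without GFP T16 replicate 4. Abeta worms against GFP::degron worms at 16 h had 0 called in limma, where 0.123% of all genes were, and 2 passed an unadjusted p under 0.05.

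**Figure D3:**
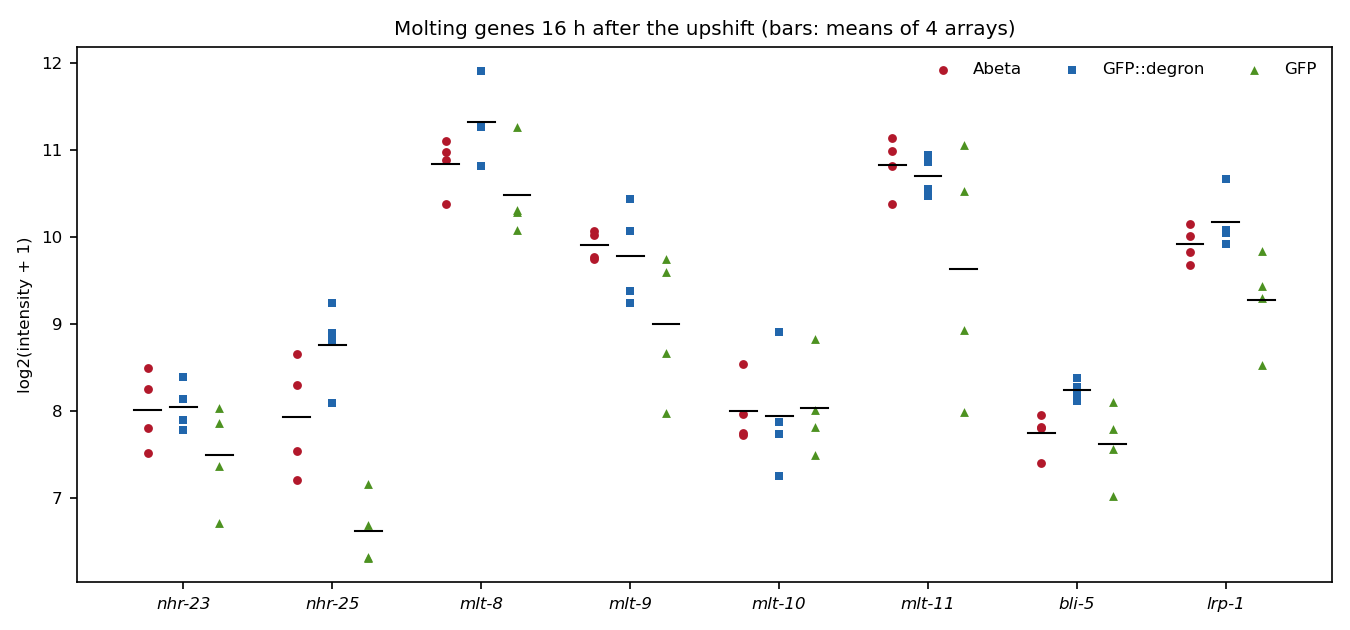
Level of the 8 molting genes 16 h after the upshift, as log2(intensity + 1), with 1 point for each of 4 arrays per strain and bars at the means. For nhr-25 the mean is 7.92 in Abeta worms, 8.75 in GFP::degron worms and 6.62 in GFP worms; levels of different genes come from different probe sets and are not comparable.

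At 8 h and 12 h none of the 8 genes was called between any pair of strains in limma. At 12 h the share of all genes called was 0.0935% for Abeta against GFP worms, 0.333% for Abeta against GFP::degron worms and 0.0701% for GFP::degron against GFP worms. At 8 h it was 0%, 0.111% and 1.29% for the same pairs. When the dim array was kept, GFP::degron worms at 8 h had nhr-25 called above GFP worms (1.23 ± 0.37, adjusted p = 0.0341), where 10.5% of all genes were called. At an unadjusted p under 0.05, 3, 2 and 1 of the 8 genes passed at 12 h and 0, 0 and 1 at 8 h. The largest mean difference at 12 h was that of mlt-9, which averaged 11.19 ± 0.29 in Abeta worms (n = 4) and 10.02 ± 1.11 in GFP worms (n = 5), with overlap (1.17 ± 0.40, adjusted p = 0.247).

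The 12 h against 8 h comparison had 0 of the 8 called in limma in GFP::degron worms (2.24% of all genes) and 0 in GFP worms (0.234%), and at an unadjusted p under 0.05 the numbers were 2 and 0. Without GFP::degron T8 replicate 3 the count in GFP::degron worms was 1. At 16 h against 8 h, 1 of the 8 was called lower in Abeta worms (12.4% of all genes, 3.52% lower), 0 in GFP::degron worms (4.66%, with 0 also at an unadjusted p under 0.05) and 2 lower in GFP worms (22.9%, 12% lower). The count in Abeta worms was 0 with the dim array (4.64% of all genes) and without any 1 of the 6 arrays named above for nhr-25. That in GFP worms was 1 with the dim array (15.9%) and without GFP T8 replicate 1 or 4 or GFP T16 replicate 2 or 3.

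The test of whether the 16 h against 8 h difference varied between strains called 0 of the 8 in each of the 3 pairs. The shares of all genes were 0.0117% for Abeta against GFP worms, 0.00584% for Abeta against GFP::degron worms and 0.0818% for GFP::degron against GFP worms. At an unadjusted p under 0.05, 1, 0 and 2 of the 8 passed. Without GFP::degron T16 replicate 2 the last pair had a count of 1.

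The first and last times had 1 array per strain, so the strains served as the replicates. At 20 h against 0 h, 1 of the 8 genes was called, where 23.5% of all genes were and 9.21% were called lower. This was nhr-25, at 7.57, 7.61 and 6.62 in Abeta, GFP::degron and GFP worms at 20 h, against 9.33, 8.85 and 9.74 at 0 h. The difference was -2.04 ± 0.35 (adjusted p = 0.00739). Without the Abeta arrays it was -2.18 and not called (0.0775), and without the GFP arrays the count was 2. At 4 h against 0 h none was called in limma, of the 8 or of all genes (0%), and 0 of the 8 passed an unadjusted p under 0.05.

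Stage markers also differed between 12 h and 16 h, to different degrees in the 3 strains. The 9 sperm genes had summed intensities between 35657.9 and 117386 in Abeta worms at 16 h, between 1207.35 and 82216.2 in GFP::degron worms and between 122951 and 145782 in GFP worms. At 12 h the sums lay between 757.327 and 950.637 in Abeta worms, between 610.919 and 974.372 in GFP::degron worms and between 675.781 and 30649.7 in GFP worms. At 8 h they lay between 682.564 and 1283.3 in Abeta worms and between 484.865 and 778.033 in GFP::degron worms. On the 3 GFP arrays of 8 h kept, they lay between 651.714 and 7234.03. At 16 h against 12 h, 9 of 9 sperm genes were called higher in Abeta worms, 7 of 9 in GFP::degron worms and 9 of 9 in GFP worms. Of all genes 18.9%, 10.3% and 36.3% were called in either direction for the same strains. In GFP::degron against GFP worms at 16 h, 8 of 9 sperm genes were called lower, where 22.1% of all genes were called. The dim array, when kept, left 1 of 9 called in GFP::degron worms between these times, and the other 3 counts at 9, 9 and 7. Of the 8 genes of adult cuticle and yolk, 6 were called higher at 16 h than at 12 h in Abeta worms, 2 in GFP::degron worms (0 with the dim array) and 7 in GFP worms. Their summed intensities at 16 h lay between 4316.73 and 14591.4 in Abeta worms, between 834.685 and 10097.2 in GFP::degron worms and between 11077.4 and 61723.2 in GFP worms. For the 7 oocyte and eggshell genes the counts called higher were 7, 0 and 7.

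**Figure D4:**
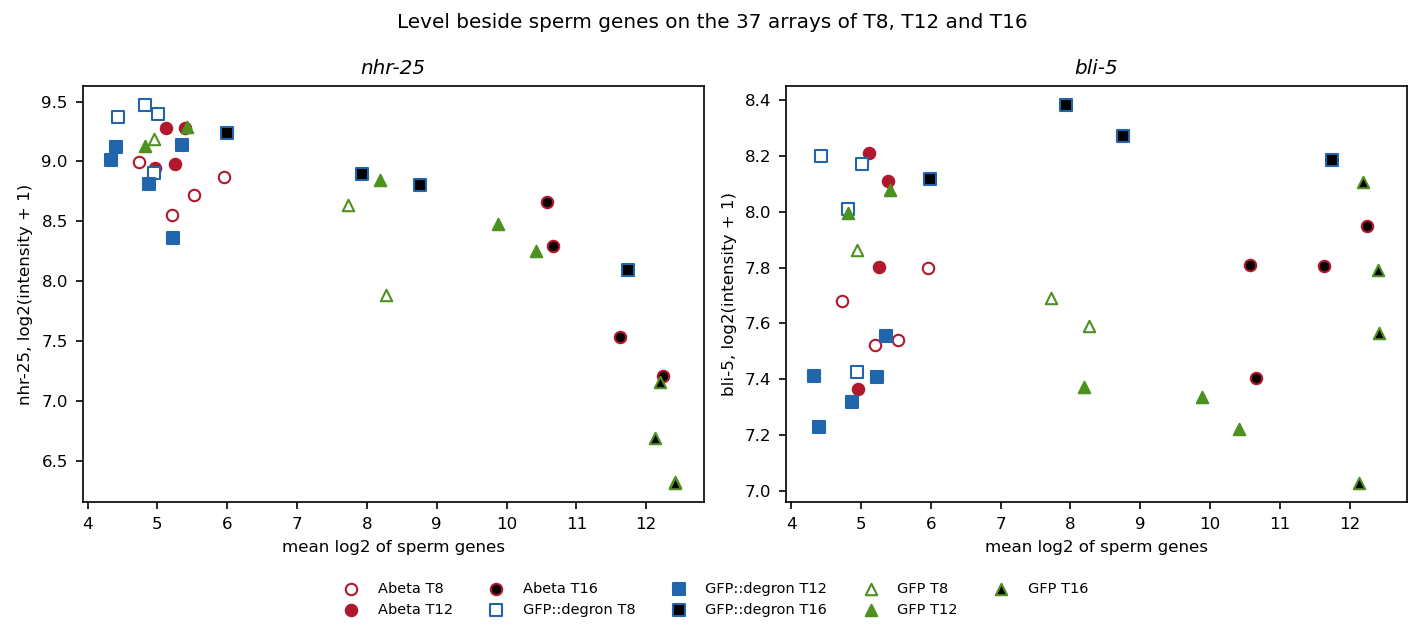
Level of nhr-25 (left) and bli-5 (right) as log2(intensity + 1) against the mean log2 level of 9 sperm genes, with 1 point for each of the 37 arrays of 8, 12 and 16 h. The GFP arrays of 16 h lie at the right end, with sperm genes between 12.13 and 12.42 and nhr-25 between 6.31 and 7.16. The Abeta array of 16 h highest in sperm genes, at 12.25, lies among them, with nhr-25 at 7.21. At that end bli-5 shows no such drop.

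Within both Abeta and GFP::degron worms at 16 h, the array highest in sperm genes was the lowest in nhr-25. In GFP::degron worms at 16 h, replicate 2 had the highest sperm level, 11.74, and the lowest nhr-25, 8.09. Replicate 1 had the lowest sperm level and the highest nhr-25, 9.24. In Abeta worms at 16 h, replicate 3 had the highest sperm level, 12.25, and the lowest nhr-25, 7.21. In GFP worms the 2 did not coincide: replicate 2 had the highest sperm level, 12.42, with nhr-25 at 6.32, and replicate 3 had the lowest nhr-25, 6.31. Not all of the 8 genes went this way. At 16 h, Abeta replicate 3 was the highest of its group in mlt-10, and GFP::degron replicate 2 the highest in nhr-23. The part of these stage markers in the differences at 16 h was not tested. Of the larval cuticle genes, 3 of 7 were called lower at 16 h than at 12 h in Abeta worms, 4 of 7 in GFP::degron worms and 4 of 7 in GFP worms, and with the dim array 1, 0 and 4. Of 6 body-wall muscle genes 1, 2 and 2 were called lower, and 0 in each strain with the dim array. Over all genes 9.28%, 5.24% and 20.7% were called lower in Abeta, GFP::degron and GFP worms between these times.

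The wider molting pathway was read from 46 further genes in 3 roles. At 16 h against 12 h in Abeta worms, 17 of the 46 were called lower and 0 higher, with a median difference of -0.63 against 0.04 over all genes. In GFP::degron worms 9 were called lower and 3 higher (median -0.37 against 0.13), and in GFP worms 30 lower and 0 higher (median -0.92 against 0.02). The background shares are those given above for the same comparisons. The counts called lower with the dim array were 2 in Abeta, 0 in GFP::degron and 17 in GFP worms, and centring each array on its median left 9 lower and 0 higher in GFP::degron worms. Leaving out 1 array gave 22 to 32 in GFP worms. In Abeta worms the count was 11, 9 and 6 without T12 replicates 1, 2 and 3, and 5 and 10 without T16 replicates 2 and 3. In GFP::degron worms the lower and higher calls together were 3, 2 and 6 without T16 replicates 2, 3 and 4.

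By role, the 11 genes of timing and transcription had 6 called lower at 16 h against 12 h in Abeta worms, 4 in GFP::degron worms and 10 in GFP worms (2, 0 and 7 with the dim array). The 16 genes of trafficking, signalling and sterol-related transport had 6, 0 and 8 for the same strains (0, 0 and 1 with the dim array). The 19 genes of the apical matrix, peroxidases and proteases had 5, 5 and 12 (0, 0 and 9). Between GFP::degron and GFP worms at 16 h, 26 of the 46 were called higher and 0 lower (median 0.81 against 0.13 over all genes). Over all genes 14.5% were called higher. The count for the 46 was 3 with the dim array, where 5.43% of all genes were called in either direction. It was 12 without GFP T16 replicate 2. Abeta against GFP worms at 16 h had 2 called higher, where 1.62% of all genes were. That count was 0 with the dim array, 0 without any 1 of Abeta replicates 1 and 4 and GFP replicates 2 and 3 at 16 h, and 11 without GFP replicate 1 or 4.

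**Figure D5:**
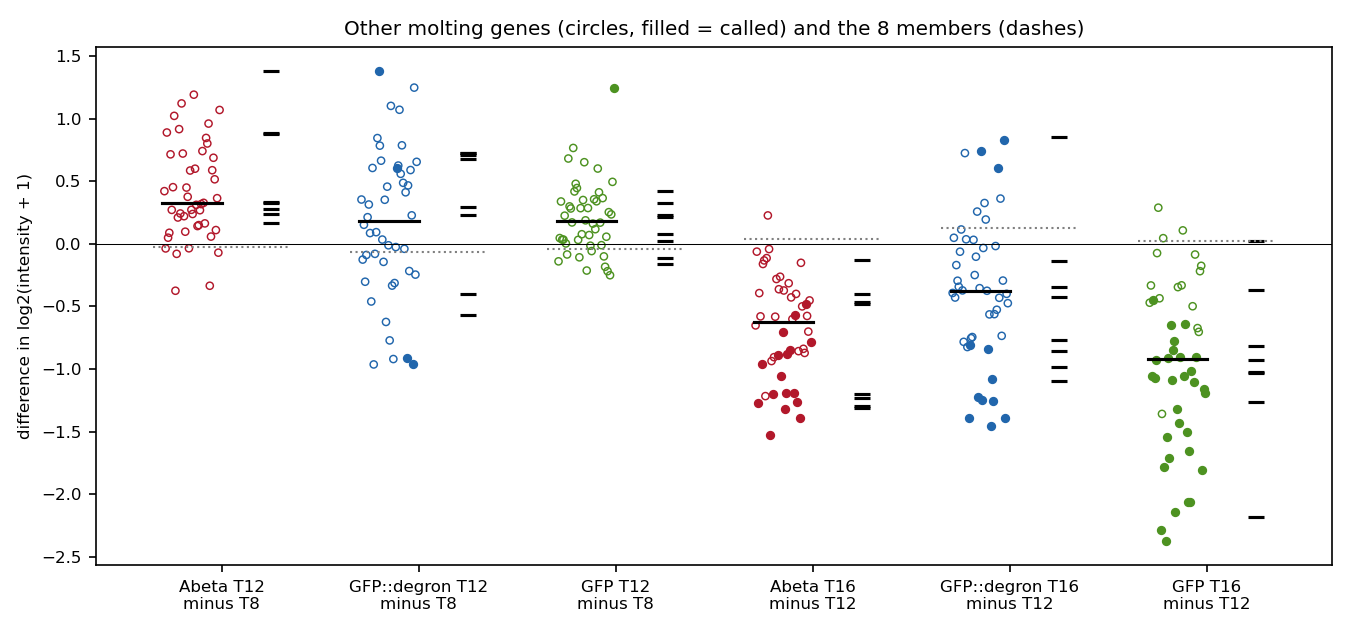
Differences in log2(intensity + 1) of the 46 other molting genes (circles, filled where called, black bar at their median) and of the 8 genes described here (dashes beside them) in 6 comparisons between times, with the median of all genes dotted. For 16 h minus 12 h in GFP worms 30 circles below 0 are filled and the median lies at -0.92.

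In each role the pair with the largest 16 h against 8 h difference in GFP worms was looked at singly, so their GFP values at 16 h are a description. The DNA-binding protein gene peb-1 fell by 1.26 ± 0.33 in GFP::degron worms at 16 h against 12 h (adjusted p = 0.0173), while in Abeta worms it differed by -0.40 ± 0.35 (adjusted p = 0.440). It averaged 6.55 ± 1.22 in GFP worms at 16 h (n = 4) and 8.61 ± 0.23 at 12 h (n = 5). The gene of the membrane-bound transcription factor myrf-1 was lower in both of those strains: it fell by 1.06 ± 0.31 in Abeta worms (adjusted p = 0.0162) and fell by 1.23 ± 0.29 in GFP::degron worms (adjusted p = 0.0113). The dim array ended all of these calls, with adjusted p of 0.232 for peb-1, and of 0.167 in Abeta and 0.146 in GFP::degron worms for myrf-1. Leaving out GFP::degron T16 replicate 2 or 3 ended that of peb-1 (0.0569 and 0.0508), GFP::degron T16 replicate 3 that of myrf-1 in GFP::degron worms (0.0520), and Abeta T16 replicate 2 or 3 that of myrf-1 in Abeta worms (0.0603 and 0.0578). With the mean over probe sets peb-1 was called in Abeta worms too (-0.86, adjusted p = 0.0479).

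The kinase gene nekl-3 fell by 0.85 ± 0.20 in Abeta worms at 16 h against 12 h (adjusted p = 0.00356, but 0.172 with the dim array), and was not called in GFP::degron worms (-0.37 ± 0.19, adjusted p = 0.186). The Patched-related gene ptr-4 was called in neither strain (-0.50 ± 0.29 in Abeta and -0.43 ± 0.28 in GFP::degron worms), although it passed in Abeta worms with the mean over probe sets (-0.90, adjusted p = 0.0297). Among genes of the apical matrix, let-653 fell by 1.39 ± 0.38 in GFP::degron worms (adjusted p = 0.0216) and was not called in Abeta worms (-0.94 ± 0.40), where it passed after median centring (-1.08, adjusted p = 0.0425). Its call in GFP::degron worms was lost with the dim array (0.126) and without GFP::degron T16 replicate 2, 3 or 4 (0.0516 to 0.0684). The fibrillin-like gene fbn-1 was called in neither (-0.11 ± 0.49 in Abeta and -0.78 ± 0.46 in GFP::degron worms), but with the mean over probe sets it passed in GFP::degron worms (-1.33, adjusted p = 0.0228). It averaged 7.36 ± 1.80 in GFP worms at 16 h (n = 4), the widest spread of these 6, and 9.64 ± 0.25 at 12 h (n = 5).

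The 8 genes varied together to different degrees over the 46 arrays other than the dim one, with each array centred on its median. Of their 28 pairs 26 had a Pearson r above 0 and 18 an r over 0.5, with a median of 0.63. The highest was 0.86, between mlt-8 and mlt-9, and mlt-9 with mlt-11 had 0.85. The lowest was -0.43, between nhr-23 and bli-5. The highest r of bli-5 with another of the 8 was 0.35, with mlt-10. These arrays share strains and times, so r describes the shape of the profiles only. The shares among pairs of other genes are not given. For each of the 8, the 3 genes nearest in profile, named below, were not of the 8.

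The 3 genes most like each of the 8 in profile were looked up among 2766 genes with a mean of at least 6 and an SD of at least 0.5. For nhr-23 they were the cell fusion gene eff-1 (r = 0.89), peb-1 (0.86) and myrf-1 (0.85). For nhr-25 they were clc-6 (0.94), T09B4.5 (0.94) and the zinc finger gene sem-4 (0.93). For mlt-8 they were bus-8B, the astacin protease gene nas-15 and F18A11.2 (0.92, 0.92 and 0.91). For mlt-9 they were sups-1, ZC123.1 and K08E7.5 (all 0.98), the closest likeness of the 8.

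For mlt-10 the nearest were the hedgehog-related gene wrt-9, dbd-9 and the cuticle collagen gene sqt-1 (0.87, 0.87 and 0.86). For mlt-11 they were Y73E7A.8 (0.97) and 2 genes of the apical matrix, lpr-3 (0.97) and noah-1 (0.95). For bli-5 they were lact-8 (0.89), ugt-6 (0.86) and the metalloprotease gene zmp-6 (0.86). For lrp-1 they were the epidermal matrix receptor gene mua-3 (0.89), the Patched gene ptc-3 (0.89) and T28D6.4 (0.88).

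Second probe sets were compared where the array had them. Those of mlt-9 (r = 0.98) and mlt-10 (0.96) and 2 of mlt-11 (0.98 and 0.90) tracked the probe set used. The second probe set of nhr-25 (r = 0.84) gave the same signs but smaller differences at 16 h against 8 h: -0.61 in Abeta, -0.43 in GFP::degron and -0.94 in GFP worms, where the one used gave -0.86, -0.53 and -1.95. For lrp-1 r was 0.69, and for nhr-23 it was 0.41. The second lrp-1 probe set had a mean of 9.85, and the one used 10.04. At 12 h against 8 h the second differed by -0.05 in Abeta, -0.19 in GFP::degron and -0.26 in GFP worms. The one used differed by 0.33, 0.30 and 0.21. At 16 h against 8 h in GFP worms the second differed by -0.31, where the one used differed by -0.60. The second nhr-23 probe set differed by 0.14 at 16 h against 8 h in GFP worms, where the one used differed by -0.51. Another mlt-11 probe set was dim (mean 2.54) and did not track (-0.20). The genes mlt-8 and bli-5 had 1 probe set each.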

How the data were processed

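Total RNA from whole Caenorhabditis elegans was hybridized to 47 Affymetrix arrays, 1 for each sample. The deposited table gives a linear intensity for each of 22625 probe sets, and its range shows that the authors took no log2 of it. The software was Affymetrix Expression Console 1.1 (submitters' processing notes), while the method of summary and any scaling are not given in the sources used. The 77 control probe sets were dropped. Probe sets were named by the 2016 platform annotation, and a gene was represented by the brightest, on average, of those that name it alone. This left 17118 genes, all matched to RefSeq symbols.

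The deposited intensity was used as log2(intensity + 1), unscaled. Group means of the 9 groups at 8, 12 and 16 h were fitted in limma 3.58.1 (R 4.3.3) on 37 arrays (28 residual degrees of freedom), with eBayes and Benjamini-Hochberg adjustment over all genes. GFP T8 replicate 3 was left out because it was far dimmer than the rest, and the fit that keeps it used 38 arrays (29 residual degrees of freedom). Arrays of 0, 4 and 20 h were fitted with strain as a block (9 arrays, 4 degrees of freedom). The number of arrays limits the precision. Errors of levels are SD, and errors of differences are SE. The pipeline was tested on simulated data, and no arrays held identical values.

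Alternatives were the fit with the dim array, quantile normalization, median centring, log2(intensity + 16), leaving out genes with a mean under 5, the mean over probe sets, a replicate block, array weights, and leaving out each array. Quantile normalization with the dim array was added after seeing the data. The molting genes, the pathway list in 3 roles, the lists of larval cuticle, adult, sperm, oocyte and muscle genes, and the naming rules were chosen with earlier results of these data known. The text names all 8 genes, from each role of the pathway list the 2 genes with the largest 16 h against 8 h difference in GFP worms, and for each of the 8 the 3 genes of most similar profile. Of the listed genes, dpy-10, col-7, col-62, vit-3 and msp-56 had no probe set that names them alone. Promoter sequences and motifs were not analysed here. Plots used python 3.11.15, pandas 2.3.3 and matplotlib 3.10.9.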

Additional observations from a re-analysis of the deposited data

Results flagged for a closer look

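Each of the 8 genes was checked in each group of 4 or 5 arrays for an array far from the others by Dixon's criterion, and 2 of 72 gene and group combinations stood out, where chance gives about 1 in 20. One was mlt-8 in Abeta worms at 12 h, where replicate 4 was at 11.63 and the next array at 12.17. The same array was the lowest of its group for mlt-9, mlt-10, nhr-25, bli-5 and lrp-1, and the highest for nhr-23 and mlt-11. The other was bli-5 in GFP worms at 8 h, where replicate 3, the dim array left out of the values above, was at 5.77 and the next at 7.59. No test of a difference between strains in the 16 h against 8 h change was passed by any of the 8 genes in limma.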

How the results depend on the processing

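Of the 21 called differences of the 8 genes, 6 kept their call under every alternative run and none reversed. The 6 were nhr-25 and mlt-8 at 16 h against 12 h in Abeta and in GFP worms, nhr-25 at 16 h against 8 h in GFP worms, and nhr-25 in GFP::degron against GFP worms at 16 h.

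Counts of the 8 genes called moved as follows. With GFP T8 replicate 3 (38 arrays) they were 2 for Abeta T16 vs T12, 0 for Abeta T16 vs T8, 0 for GFP::degron T16 vs T12, 3 for GFP T16 vs T12, 1 for GFP T16 vs T8, 0 for Abeta vs GFP at T16, 1 for GFP::degron vs GFP at T8 and 1 for GFP::degron vs GFP at T16, while 13 of 21 counts stayed within 1.5 times. With array weights on 38 arrays they were 2 for Abeta T12 vs T8, 1 for GFP::degron T12 vs T8, 5 for GFP::degron T16 vs T12, 1 for GFP::degron T16 vs T8, 1 for GFP T12 vs T8 and 5 for GFP T16 vs T8. Between strains, array weights gave 6 for Abeta vs GFP at T12, 5 for Abeta vs GFP at T16, 1 for Abeta vs GFP::degron at T16, 6 for GFP::degron vs GFP at T12 and 7 for GFP::degron vs GFP at T16. For the T16 vs T8 change they gave 1 for Abeta vs GFP and 1 for GFP::degron vs GFP. The shares of all genes called with array weights are not given, so these counts have no background and show no excess. Leaving out dim genes gave 1 for Abeta T12 vs T8, the mean over probe sets gave 0 for Abeta vs GFP at T16, median centring gave 1 for GFP::degron vs GFP at T16, and log2(intensity + 16) gave 2 for T20 vs T0. Quantile normalization, with or without the dim array, gave 5 for GFP T16 vs T12, where mlt-9 lost its call, and left the other counts as they were. The cause was not tested.

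Replicate numbers did not pair the samples: deviations of same-numbered arrays correlated between -0.59 and 0.49, with a median of 0.02. With a replicate block the count for Abeta T12 vs T8 was 1 and that for GFP T16 vs T12 was 5, where mlt-9 lost its call (adjusted p = 0.0558), and the other 19 counts were as without it.

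Leaving out each array in turn gave 0 to 2 for Abeta T12 vs T8, 2 to 4 for Abeta T16 vs T12, 0 to 1 for Abeta T16 vs T8, 0 to 1 for GFP::degron T12 vs T8, 2 to 3 for GFP::degron T16 vs T12, 2 to 6 for GFP T16 vs T12, 1 to 3 for GFP T16 vs T8, 0 to 2 for Abeta vs GFP at T16, 1 to 5 for GFP::degron vs GFP at T16 and 0 to 1 for the T16 vs T8 change of GFP::degron vs GFP. Leaving out a strain gave 0 to 2 for T20 vs T0. The other counts were 0 in every such fit.

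Over all genes the number called also moved by more than 1.5 times with the dim array. At 16 h against 12 h it was 3242 without and 1087 with that array in Abeta worms, 1764 and 21 in GFP::degron worms, and 6220 and 2783 in GFP worms, and for GFP::degron against GFP worms at 16 h it was 3779 and 929.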
